A study of Macaca fascicularis with 34 samples.

Results

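TET1, TET2, TET3 and TDG, the enzymes of oxidative DNA demethylation, were followed through single cells of cynomolgus monkey embryos and male gonads. The genes were chosen by name: every table row paired with the human symbol TET1, TET2, TET3 or TDG was taken, which gave 4 rows out of 28551 genes. TET1 is gene 102122605 on chromosome 9, TET2 is gene 102122788 on chromosome 5, TET3 is gene 102146434 on chromosome 13, and TDG is gene 101866862 on chromosome 11, which the table lists under the monkey name LOC101866862. All 4 gene numbers match a gene of the same human symbol in the RefSeq annotation T2T-MFA8v1.1. The study addressed where the monkey germ line arises. It measured 34 single cells of the subspecies fascicularis of Macaca fascicularis with SC3-seq, a method that reads only the 3′ ends of polyadenylated transcripts. Of these, 25 were embryo cells, 3 taken on embryonic day 13 (E13), 1 on E14, 11 on E16, 2 on E17 and 8 on E20, while 9 came from male gonads, 6 of them on E36, 1 on E47 and 2 on E55. The labels name no genotype, treatment, animal, litter or cell type for any group.

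TET enzymes are dioxygenases that use 2-oxoglutarate, iron and oxygen to oxidise 5-methylcytosine to 5-hydroxymethylcytosine and on to 5-formylcytosine and 5-carboxylcytosine. TDG, thymine DNA glycosylase, cuts out the last 2 of these bases, and base excision repair then restores an unmethylated cytosine. Oxidised bases can also be lost by dilution at replication, a route that needs no glycosylase. In mouse primordial germ cells, which erase most of their DNA methylation on the way to and in the gonad, TET1 is known for its part in erasing imprints and in switching on germline genes, and TET3 is best known from the oocyte and zygote.

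A level is given as RPM, the reads of a gene scaled to a common library total. Each library held between 472190 and 3556624 reads, recovered from the deposited values. SC3-seq reads come from the transcript end, so levels of different genes can be set side by side without dividing by length, but a gene whose 3′ end is annotated wrongly is undercounted. Each cell is 1 sample and no animal is named, so a stage counts as 1 sample, no test between groups was run, and the SD below is the spread between cells. Intervals cover the counting error of reads only and leave out the spread between cells. Reads carry no molecular identifiers, so they are not counts of molecules. Fewer transcripts in a cell and less efficient capture of them cannot be told apart. Clustering without the 4 genes and without the pathway genes described further on split the cells into 26 and 8. The larger cluster was germ-cell-like: 10 of 14 germ cell markers had a median of at least 15 RPM, with NANOG, SOX15 and TFAP2C among its leading genes, and it held 17 embryo cells and all 9 gonad cells. The smaller was mesoderm-like: 7 of 10 mesoderm markers reached that median, with HAPLN1, FN1 and HAND1 leading, and it held E16 cell 8 and E20 cells 1 to 7. Some libraries stood apart. Of 14 markers of gonadal somatic cells, 13 reached 15 RPM in the E47 cell, 7 in E36 cell 5 and 6 in E55 cell 2, against 1 to 4 in the other gonad cells. E16 cell 8 had all 8 endoderm markers at that level besides 9 of 10 mesoderm markers. Summed, its endoderm markers gave 5358 RPM and its mesoderm markers 3220 RPM. E17 cell 2 had 7 mesoderm markers beside 9 germ cell markers. Some cells of the mesoderm-like cluster also held germ cell markers. E20 cell 5 had 8 of 14 at that level and NANOG at 534 RPM, against 566 RPM in the germ-cell-like E20 cell 8. E20 cell 4 had 7 and NANOG at 124 RPM, and E16 cell 8 had 8 and NANOG at 222 RPM. The code in the sample titles also moves with stage: E13 cells carry MS10, the E14 cell MS13, E16 cells and E20 cell 8 MS09, E20 cells 1 to 7 MS08, and E17 and all gonad cells MS11.

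TET1 was the TET gene read in every cell. It had at least 1 read in 34 of 34 cells, as did 3119 of the 21276 genes with any read (14.7%), and reached 15 RPM in 30. In the E13 cells it stood at 69.9, 49.0 and 292 RPM, and in the E14 cell at 45.5 RPM. The E13 mean of 137 ± 135 RPM (SD, n = 3 cells) is therefore set largely by 1 cell. The 11 E16 cells ran from 1.24 RPM through a median of 91.3 to 231 RPM. Its lowest values were in E16 cell 4 (3 reads), E16 cell 11 (8.01 RPM) and E16 cell 3 (9.56 RPM). The highest was in E16 cell 8, which fell in the mesoderm-like cluster but also held endoderm markers. The 2 E17 cells held 74.3 and 93.6 RPM, and the 8 E20 cells ran from 4.8 through a median of 62.0 to 193 RPM. The lowest E20 value belonged to E20 cell 8, the 1 germ-cell-like cell of that day.

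In the gonad, TET1 was read at 45.6 RPM or more in all 9 cells. The 6 E36 cells ran from 45.6 through a median of 130 to 240 RPM, the E47 cell held 107 RPM, and the E55 cells held 69.7 and 120 RPM. The mean was 123 ± 56.5 RPM (SD, n = 9 cells) in the gonad and 91.0 ± 74.8 RPM (SD, n = 25 cells) in the embryo. By stage the means ran in the order E13 (137), E36 (136 ± 65.5, n = 6), E47 (107), E55 (94.6 ± 35.2, n = 2), E20 (94.2 ± 71.7, n = 8), E17 (83.9 ± 13.7, n = 2), E16 (81.5 ± 72.3, n = 11) and E14 (45.5) RPM. No neighbours in that order differed by more than the spread between cells where a spread could be taken. Against all genes with a read, TET1 lay at the 89.6th percentile of mean level in embryo cells and at the 91.4th in gonad cells.

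**Figure D1:**
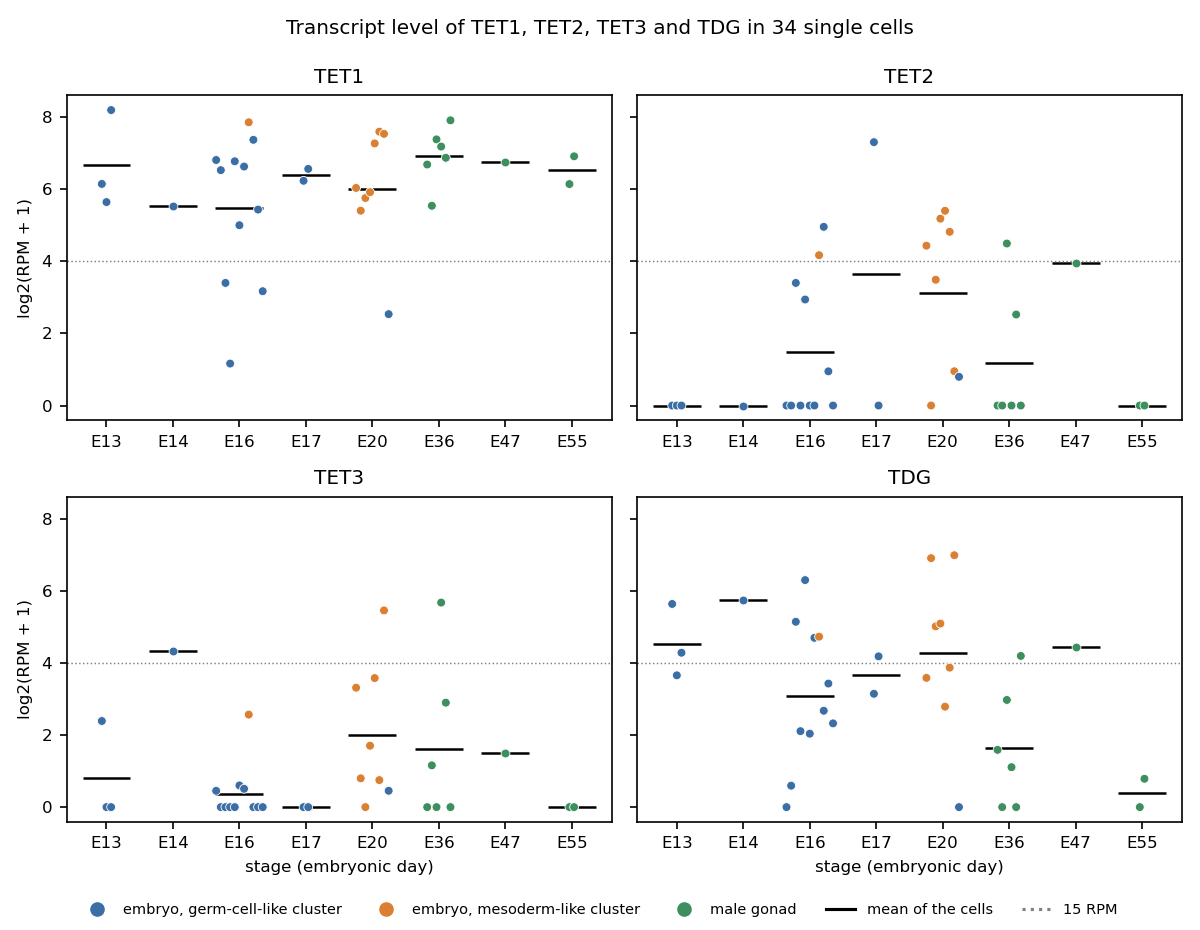
Level of TET1, TET2, TET3 and TDG in each of the 34 cells, by stage, as log2(RPM + 1). Points are cells, coloured as embryo germ-cell-like, embryo mesoderm-like or gonad, black lines are means of the cells and the dotted line is 15 RPM; TET1 is above 0 in all cells, while TET2 and TET3 are at 0 in 18 and 17 cells, and TDG is low at E36 and E55.

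TET2 was patchy. It had a read in 16 of 34 cells and reached 15 RPM in 8. No TET2 read was found in the 3 E13 cells, which allows up to 1.58 RPM over their summed reads, in the E14 cell, which allows up to 1.3 RPM, or in the 2 E55 cells, which allows up to 1.27 RPM. At E16 the lowest and the median of the 11 cells were 0 and the highest was 30.1 RPM, in E16 cell 9. Only 5 of these 11 cells had a read. At E17 the 2 cells held 157 and 0 RPM. The first of them, E17 cell 1, had 421 TET2 reads, the highest level of TET2 in any of the 34 cells, and the next was E20 cell 5 at 41.3 RPM. At E20 the 8 cells ran from 0 through a median of 15.4 to 41.3 RPM, and 7 of the 8 had a read. Of those 7, E20 cell 7 had 1 read and E20 cell 8 had 2. At E36 the lowest and the median were 0 and the highest was 21.5 RPM, in E36 cell 3, with reads in 2 of 6 cells. The E47 cell, the library with 13 somatic markers, held 14.5 RPM. The mean was 14.3 ± 32.4 RPM (SD, n = 25 cells) in the embryo and 4.53 ± 8.0 RPM (SD, n = 9 cells) in the gonad.

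TET3 had the fewest reads of the 3 TET genes over all 34 cells, 290 against 865 for TET2. In the gonad, however, TET3 had a higher mean than TET2 (6.62 against 4.53 RPM), as it did at E13, E14 and E36. It had a read in 17 of 34 cells and reached 15 RPM in 3: the E14 cell (19.0 RPM, 44 reads), E20 cell 7 (42.9 RPM) and E36 cell 4 (50.05 RPM, 130 reads). These 3 cells are of 3 different stages. TET2 was at 0 in the E14 cell and in E36 cell 4, and at 0.933 RPM in E20 cell 7. The E13 cells held 4.24, 0 and 0 RPM. At E16 the lowest and the median of 11 cells were 0 and the highest was 4.92 RPM, in E16 cell 8 of the mesoderm-like cluster. No TET3 read was found in the 2 E17 cells, which allows up to 0.548 RPM over their summed reads, or in the 2 E55 cells, which allows up to 1.27 RPM. At E20 the cells ran from 0 through a median of 1.5 to 42.9 RPM, with a read in 7 of 8, and at E36 from 0 through 0.616 to 50.05 RPM, with a read in 3 of 6. The E47 cell held 2 reads, or 1.81 RPM. TET3 reads were thus found in most E20 cells, but E20 cells 2, 6 and 8 had 1 read each. E20 cell 7 held 46 of the 78 reads of that day, and E36 cell 4 held 130 of the 150 of E36.

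TET1 held most TET reads at every stage, by summed reads. Over all cells TET1 took 83.7% of 7077 TET reads, TET2 12.2% and TET3 4.10%. Its share was 99.2% at E13 (exact 95% binomial interval 97.3 to 99.9%), 70.5% at E14 (62.5 to 77.7%), 91.8% at E16 (90.6 to 92.8%) and 52.3% at E17 (48.9 to 55.6%). It was 79.0% at E20 (76.6 to 81.2%), 88.1% at E36 (86.5 to 89.6%), 86.8% at E47 (79.9 to 92.0%) and 100% at E55, where the interval starts at 98.4%. TET1 was the highest TET gene in 32 of 34 cells, and the sole TET gene with a read in 10, of which 6 were embryo and 4 gonad cells. The exceptions were E17 cell 1, where TET2 took 67.9% of TET reads (421 against 199 for TET1), and E16 cell 3, where TET1 and TET2 had 34 reads each. The low E17 share rests on that first cell: in the other E17 cell all TET reads were TET1. No minimum of reads was set for these counts of cells. E16 cell 4, counted as TET1 alone, had 3 TET reads (interval of the share 29.2 to 100%), and E20 cell 8 had 16. The next TET gene changed with stage. TET3 came second at E14, with 29.5% of reads, and TET2 came second at E16, E17, E20 and E47, with 14.8% against 6.24% for TET3 at E20 (3.18% for TET3 without E20 cell 7). At E36 TET3 held 8.58% and TET2 3.32%, but 130 of the 150 TET3 reads came from E36 cell 4. Without that cell the E36 share of TET1 was 93.7%.

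**Figure D2:**
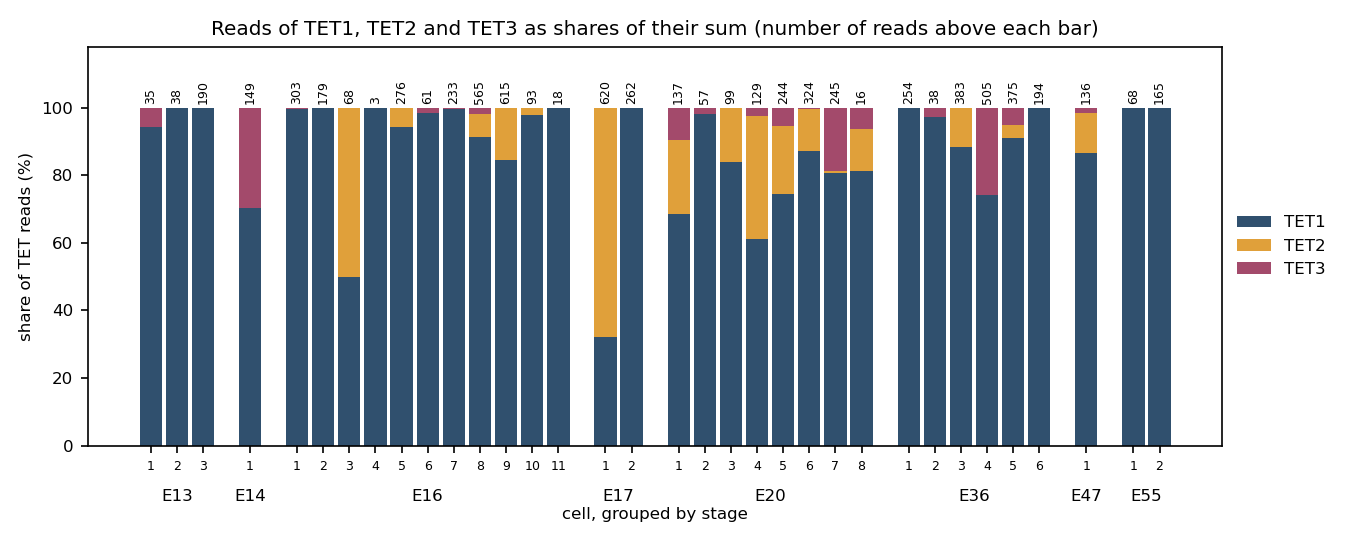
Share of TET reads (percent) held by TET1, TET2 and TET3 in each of the 34 cells, ordered by stage. Each bar is 1 cell, with its number of TET reads above it, and its colours add up to 100%; TET1 fills most of every bar except in E17 cell 1 (TET2 67.9%) and E16 cell 3, where TET1 and TET2 have 34 reads each.

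Whether the TET genes vary together from cell to cell could not be settled, since TET2 and TET3 were at 0 in 18 and 17 cells. TET2 and TET3 were both read in 9 cells, TET2 without TET3 in 7, TET3 without TET2 in 8 and neither in 10. Over the 34 cells, which share stage, cluster and depth, Pearson's r of log2(RPM + 1) was 0.22 between TET1 and TET2 (Spearman's rho 0.25), 0.24 between TET1 and TET3 (rho 0.12) and 0.07 between TET2 and TET3 (rho 0.16). In counts this sparse, correlations of this size are no finding. With log2 of the reads per cell, r was −0.27 for TET1, 0.19 for TET2, −0.10 for TET3 and −0.21 for TDG.

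TDG, the glycosylase that acts on the oxidised bases, had a read in 29 of 34 cells and reached 15 RPM in 14. The E13 cells held 48.7, 11.6 and 18.5 RPM and the E14 cell 52.4 RPM. The 11 E16 cells ran from 0 through a median of 5.38 to 77.6 RPM, the highest being E16 cell 5. The E17 cells held 7.84 and 17.1 RPM. The 8 E20 cells ran from 0 through a median of 22.5 to 126 RPM. The highest levels of all 34 cells were in E20 cell 7 (126 RPM) and E20 cell 2 (119 RPM), both mesoderm-like, and the 0 was in the germ-cell-like E20 cell 8. In the gonad the E36 cells ran from 0 through a median of 1.58 to 17.3 RPM, the E47 cell held 20.9 RPM, and the E55 cells held 0 and 0.724 RPM. So 7 of 9 gonad cells were below 7 RPM, as were 8 of 25 embryo cells, and all 9 gonad cells lay within the range of the embryo cells.

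By stage the TDG means ran in the order E14 (52.4), E20 (42.5 ± 50.7, n = 8), E13 (26.3 ± 19.7, n = 3), E47 (20.9), E16 (17.1 ± 23.3, n = 11), E17 (12.5 ± 6.58, n = 2), E36 (4.55 ± 6.74, n = 6) and E55 (0.362 ± 0.512, n = 2) RPM, with n in cells. Neighbours in this order lay within the larger of their SDs where one could be taken, except E17 and E36, whose means were further apart than either SD while their cells overlapped, up to 17.3 RPM at E36. Over summed reads TDG stood at 23.5 RPM in the embryo (exact 95% Poisson interval 22.2 to 24.9 RPM) and at 3.96 RPM in the gonad (3.02 to 5.09 RPM). Both intervals leave out the spread between cells, and the cells of the 2 groups overlapped. The E47 cell alone gave 23 of the 60 TDG reads of the gonad.

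Set against TET1 of the same cells, TDG was frequent in the embryo and rare in the gonad. There were 28.6 TDG reads per 100 TET1 reads in embryo cells (1152 against 4030 reads) and 3.17 in gonad cells (60 against 1892 reads). By stage the ratio was 16.9 at E13, 115 at E14, 21.9 at E16, 14.97 at E17, 43.7 at E20, 2.34 at E36, 19.5 at E47 and 0.429 at E55. The median over cells was 23.1 in the embryo and 0.8 in the gonad, and the 17 germ-cell-like embryo cells together gave 26.1. TDG exceeded TET1 in 4 embryo cells (the E14 cell, E16 cells 3 and 4 and E20 cell 2) and in 0 of 9 gonad cells. Both TET1 and TDG reached 15 RPM in 2 of 9 gonad cells and in 6 of the 17 germ-cell-like embryo cells. TET1 reached it with TDG below it in 7 of those 17, among them E16 cells 1, 2, 6 and 9, where TDG was below 7 RPM.

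**Figure D3:**
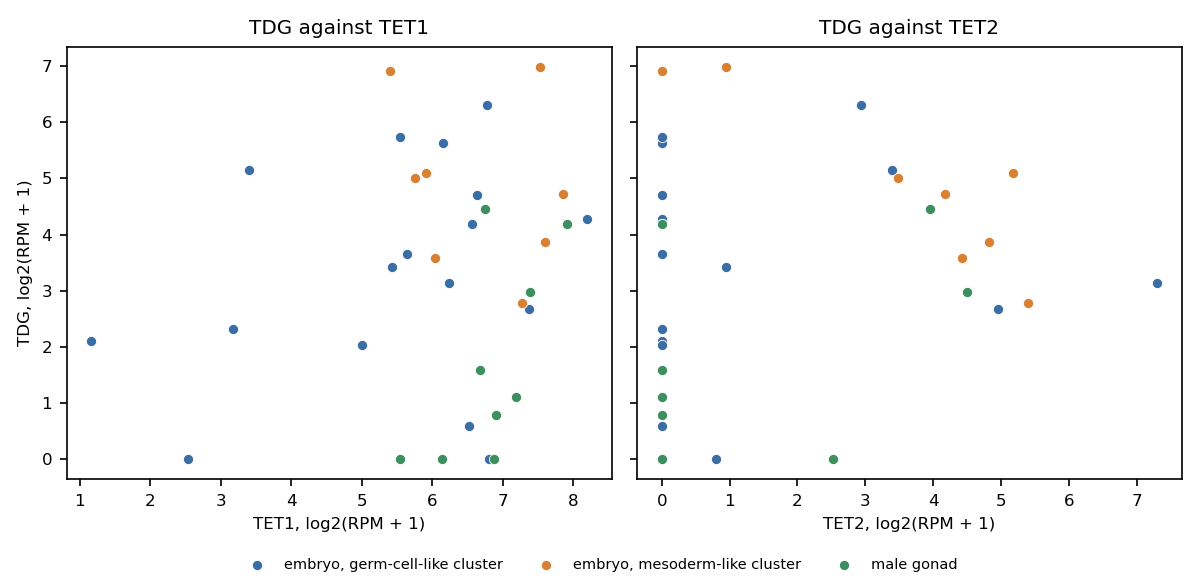
TDG against TET1 (left) and against TET2 (right) in each of the 34 cells, as log2(RPM + 1), with points coloured as embryo germ-cell-like, embryo mesoderm-like or gonad. The gonad cells sit at TET1 levels of 45.6 to 240 RPM with TDG mostly below 7 RPM, and the highest TDG values, E20 cells 2 and 7, have TET2 at 0 and 0.933 RPM.

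Gonad against embryo compares the 9 cells labelled gonad with all 25 cells labelled embryo, 8 of which are mesoderm-like, so it is not set within 1 cell type. TDG was lower in the gonad: the difference of mean log2(RPM + 1), gonad minus embryo, was −2.12, and the mean level was 5.04-fold lower (5.43 ± 8.08 against 27.4 ± 34.3 RPM; SD, n = 9 and 25 cells). A gene was counted as different when this difference was at least 1 in size, that is at least 2-fold. TDG was the 1 of the 4 genes so counted, against 22.7% of the 15245 genes measured, 7.62% higher and 15.1% lower, so 1 of 4 is near the share of all genes. TDG's difference lay at the 2.45th percentile of all genes, whose median was −0.17. TET1 differed by 0.96, just under 2-fold on this scale, with means 1.36-fold higher in the gonad. TET2 differed by −0.73 and TET3 by 0.17. The cells of the groups overlapped for all 4 genes.

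The TDG difference was −1.61 within the germ-cell-like cluster, −2.15 when the 3 somatic-rich gonad cells (the E47 cell, E55 cell 2 and E36 cell 5) were dropped, −2.47 without the E47 cell and −1.99 within code MS11, which sets the 2 E17 cells against the gonad. With a pseudocount of 10 in place of 1 it was −0.98, below the 2-fold line. The TET1 difference was 1.34 within the germ-cell-like cluster and 0.42 within code MS11. With each cell left out in turn it ran from 0.76 to 1.12, and it was above the line without E36 cell 2, E55 cell 1, E13 cell 3, E16 cell 8 or 9, or E20 cell 5, 6 or 7. The TET2 difference was −1.20 without the somatic-rich cells, −2.43 within MS11, 0.02 over germ-cell-like cells and −1.14 without E36 cell 3, and was also past the line without the E47 cell. TET3 gave 1.25 within MS11 and −0.38 without E36 cell 4.

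E36 against E16 sets the largest gonad group beside the largest early group. On the log2 scale TET1 differed by 1.46, E36 minus E16 (136 ± 65.5 against 81.5 ± 72.3 RPM), TET3 by 1.25 (9.62 ± 20.0 against 0.566 ± 1.46 RPM) and TDG by −1.45 (4.55 ± 6.74 against 17.1 ± 23.3 RPM). TET2 differed by −0.32. So 3 of 4 genes were at least 2-fold apart, against 37.5% of 14293 genes, of which 7.28% were higher and 30.2% lower at E36; the median of all genes was −0.48. The 6 and 11 cells overlapped for every one of the 4 genes. Taken from medians over cells, the TET1 difference was 0.50. TET3 was under the line without E36 cell 4 (0.44) and without E36 cell 5, the somatic-rich cell of that day (0.99). For TDG the germ-cell-like cells gave −1.29, and −0.96 when E36 cell 5 was also left out. The stages do not share a title code, so stage and code cannot be told apart here.

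E20 against E16 compares days on which nearly all cells fell into different clusters. TET2, TET3 and TDG were higher at E20 by 1.64, 1.63 and 1.19 on the log2 scale, and TET1 differed by 0.54, or by 1.03 without E20 cell 8. In mean RPM, TET2 stood at 17.05 ± 16.5 against 5.84 ± 9.77, TET3 at 8.35 ± 14.6 against 0.566 ± 1.46, and TDG at 42.5 ± 50.7 against 17.1 ± 23.3 (SD, n = 8 and 11 cells). Thus 3 of 4 genes were at least 2-fold higher, against 13.9% of 14998 genes higher and 18.9% lower (32.8% in either direction; median of all genes −0.12). Within the germ-cell-like cluster E20 is E20 cell 8 alone, and the differences from the E16 cells of the cluster were −2.69 for TET1, −0.43 for TET2, 0.30 for TET3 and −2.93 for TDG. Within code MS09, which adds E16 cell 8, they were −2.93, −0.70, 0.0777 and −3.09. Stage, cluster and title code therefore cannot be told apart in the contrast of the days. The TDG difference ran from 0.80 without E20 cell 7 to 1.80 without E20 cell 8, and was under the line without E20 cell 2 or 7 or E16 cell 1 or 2. With a pseudocount of 10 the differences of TET2, TET3 and TDG were all under the line.

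Set apart by cluster, all 4 genes were higher in the 8 mesoderm-like cells than in the 13 germ-cell-like cells of E16, E17 and E20. The differences on the log2 scale were 1.47 for TET1, 1.99 for TET2, 2.12 for TET3 and 2.05 for TDG, so 4 of 4 genes were at least 2-fold higher, against 22.0% of 15039 genes higher and 12.2% lower (34.2% in either direction; median of all genes 0.18). The clusters overlapped for every gene. E20 cells 1 to 7 carry MS08, which none of the 13 carries. They held 1072332 to 1564397 reads, against 1933072 to 3556624 in the 13. For these cells cluster, title code, depth and, but for E20 cell 8, stage cannot be told apart. Mean levels were 123 ± 75.8 against 64.5 ± 51.9 RPM for TET1 and 45.7 ± 48.4 against 14.5 ± 21.7 RPM for TDG. For TET2 they were 19.1 ± 15.1 against 15.8 ± 43.3 RPM, a ratio of 1.21; E17 cell 1 held 421 of the 570 germ-cell-like reads. TET2 reads were found in 7 of 8 mesoderm-like and 6 of 13 germ-cell-like cells. Among these, E20 cell 7 had 1 read, and E16 cell 10 and E20 cell 8 had 2 each. TET3 showed the widest ratio: 88 reads in the mesoderm-like cells, or 7.54 RPM (exact 95% Poisson interval 6.05 to 9.29 RPM), against 4 reads in the germ-cell-like cells, or 0.121 RPM (0.0329 to 0.309 RPM). These intervals leave out the spread between cells. The highest TET3 level of those 13 cells was 0.517 RPM, and 7 of 8 mesoderm-like cells had a read. E20 cell 7 held 46 of the 88 reads, and E20 cells 2 and 6 had 1 read each. All 17 germ-cell-like embryo cells, which include the E14 cell with 44 reads, gave 50 reads, or 1.34 RPM. The gonad cells, also in the germ-cell-like cluster, gave 152 reads, or 10.03 RPM, with 130 of them in E36 cell 4. The TET3 contrast is thus limited to E16, E17 and E20. Within code MS09, E16 cell 8 lay above the 11 germ-cell-like cells by 2.87 for TET1, 2.98 for TET2, 2.38 for TET3 and 2.06 for TDG, a contrast that rests on 1 cell with endoderm markers too. With a pseudocount of 10 the differences of TET2 and TET3 were 0.71 and 0.66, and taken from medians over cells that of TET1 was 0.42, all under the line.

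Within the mesoderm-like cells the 2 with the highest TDG had the lowest TET2. TET2 stood at 0 and 0.933 RPM in E20 cells 2 and 7, which had the highest TDG, and at 41.3 RPM in E20 cell 5, which had the lowest TDG of the cluster (5.90 RPM). E20 cell 4 departs from this, with TET2 at 35.4 RPM, the second highest, and TDG at 33.1 RPM, the third highest. Over the 8 cells Pearson's r was −0.89 and Spearman's rho −0.71, a description of 8 cells of E16 and E20 that differ in depth. E20 cell 2 and E20 cell 7 also had the fewest genes at 15 RPM in the cluster, 5566 and 5504, against 6775 to 8106 in the others. They also had the most epiblast markers of the cluster at 15 RPM, 5 and 6 of 8 (728 and 565 RPM summed), against 1 to 4 in the others (44.4 to 452 RPM). The part of either in the pattern was not tested. In the 17 germ-cell-like embryo cells r was 0.13 and in the 9 gonad cells 0.47 (rho 0.37), and −0.89 is the value farthest from 0 of the 24 computed for 6 pairs of genes in 4 groups of cells.

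The other steps of the pathway were described from lists of genes by role, each as counts of members at least 2-fold apart, gonad minus embryo. Beside TDG, 10 other DNA glycosylases were measured, of which 2 were higher and 1 lower (median 0.14), against 7.62% of all genes higher and 15.1% lower (median −0.17). MBD4, which like TDG removes thymine from T:G mismatches, stood at 91.0 ± 51.8 RPM in the gonad (lowest 28.4, highest 195) and 34.3 ± 28.5 RPM in the embryo (lowest 0, highest 96.3), a log2 difference of 2.07. All 9 gonad cells and 16 of 25 embryo cells had it at 15 RPM or more, and the difference within the germ-cell-like cluster was 1.99. NEIL2, which removes oxidised bases, stood at 65.6 ± 62.1 against 22.1 ± 33.1 RPM, a difference of 1.99 (1.59 within the cluster). NTHL1 differed by −1.53, at 5.69 ± 8.42 against 13.7 ± 12.1 RPM. UNG, which removes uracil, was the most abundant of the list at 269 ± 181 against 236 ± 138 RPM. The groups overlapped for each of these 4 glycosylases. TDG and MBD4 thus differed in opposite directions between embryo and gonad.

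Of 14 measured genes of base excision repair after the glycosylase, 0 were higher and 4 lower in the gonad (median −0.47), against 7.62% and 15.1% of all genes (median −0.17). LIG1, a DNA ligase, differed by −1.83, FEN1, the flap endonuclease, by −1.61, LIG3 by −1.45 and POLE, a replicative polymerase, by −1.22. LIG1, FEN1 and POLE also serve DNA replication. FEN1 differed by −1.08 without E36 cell 3, and moved by over 1.5 times without E36 cell 4 too; POLE differed by −0.84 without E36 cell 2 and was also under the line without E36 cell 1 or 4. APEX1, which cuts the strand at the emptied site, stood at 420 ± 219 against 638 ± 183 RPM. With a pseudocount of 10, 1 of the 14 was at least 2-fold lower, and the share of all genes at that setting is not given.

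Among 14 measured genes that make or use 2-oxoglutarate or related cofactors, 2 were higher and 3 lower (median 0.02), again against 7.62% and 15.1% of all genes. The 3 lower ones were isocitrate dehydrogenases of the mitochondrion: IDH2 at 36.1 ± 34.8 against 146 ± 89.96 RPM (difference −2.81), IDH3B (−2.47) and IDH3G (−1.86). IDH3A, the other IDH3 gene of the list, differed by −0.13 (58.6 ± 31.5 against 63.1 ± 46.3 RPM). SLC23A2, a transporter of vitamin C, which keeps TET enzymes active, stood at 107 ± 84.4 against 49.7 ± 57.7 RPM (2.26). Within the germ-cell-like cluster that difference was 1.04, and at E20 against E16 it was −4.60. Without the 3 somatic-rich gonad cells 1 of the 14 was higher, and the share of all genes without them is not given. Of 12 TET partners and regulators 1 was higher and 1 lower (median −0.41), near the 7.62% and 15.1% of all genes. They were NANOG (1.76, but −0.30 within the germ-cell-like cluster) and PRDM14 (−1.77). Without the somatic-rich cells 3 of these 12 were lower, again with no share of all genes for that setting. OGT, which binds TET proteins and adds sugar to them, stood at 112 ± 56.7 against 137 ± 90.4 RPM.

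Of 6 cytidine deaminases 0 were higher and 1 lower (median −0.10), namely APOBEC2 (−1.36), against 7.62% of all genes higher and 15.1% lower, the shares that also apply to the next 2 lists. Of 16 GADD45 genes and modifiers of TDG 0 were higher and 2 lower (median −0.11), GADD45G (−2.01) and DTL (−1.64), part of the ligase that marks TDG for destruction in S phase. DTL differed by −1.05 without E36 cell 6. Leaving out the somatic-rich cells, 5 of the 16 were lower, but the share of all genes at that setting is not given. Of 9 readers of oxidised or methylated cytosine 0 were higher and 2 lower (median −0.79), THYN1 (−1.69) and MBD1 (−1.38), and MBD1 stood at −0.97 without E36 cell 3 and was also under the line without E36 cell 5 or 6. Without the somatic-rich cells 4 of these 9 were lower, again with no share of all genes for that setting.

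Of 9 genes that write or keep DNA methylation 2 were higher and 3 lower in the gonad (median −0.40), against 7.62% and 15.1% of all genes. DNMT1, which copies methylation at replication, differed by −2.18, DNMT3B, which writes it anew, by −1.79, and UHRF1, which brings DNMT1 to new DNA, by −1.15. UHRF1 stood at −0.03 within the germ-cell-like cluster, and at −0.86 without E36 cell 3, and was also under the line without E36 cell 4 or 5 or E20 cell 7. DNMT3L, a cofactor of the writing enzymes, was higher by 3.22 and DPPA3, known to protect and to limit methylation in oocytes and zygotes, by 3.36. Of 15 germline genes known to be kept silent by promoter methylation 9 were higher and 1 lower in the gonad, against 7.62% and 15.1% of all genes, with a median of 1.34. DAZL, DDX4 and GTSF1 led, with differences of 5.01, 4.82 and 4.10. Within the germ-cell-like cluster 7 of 15 were higher, and without the somatic-rich cells 6 of 15. The share of all genes is not given for either setting. DAZL and DDX4 are also germ cell markers, and no methylation was measured in these cells.

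**Figure D4:**
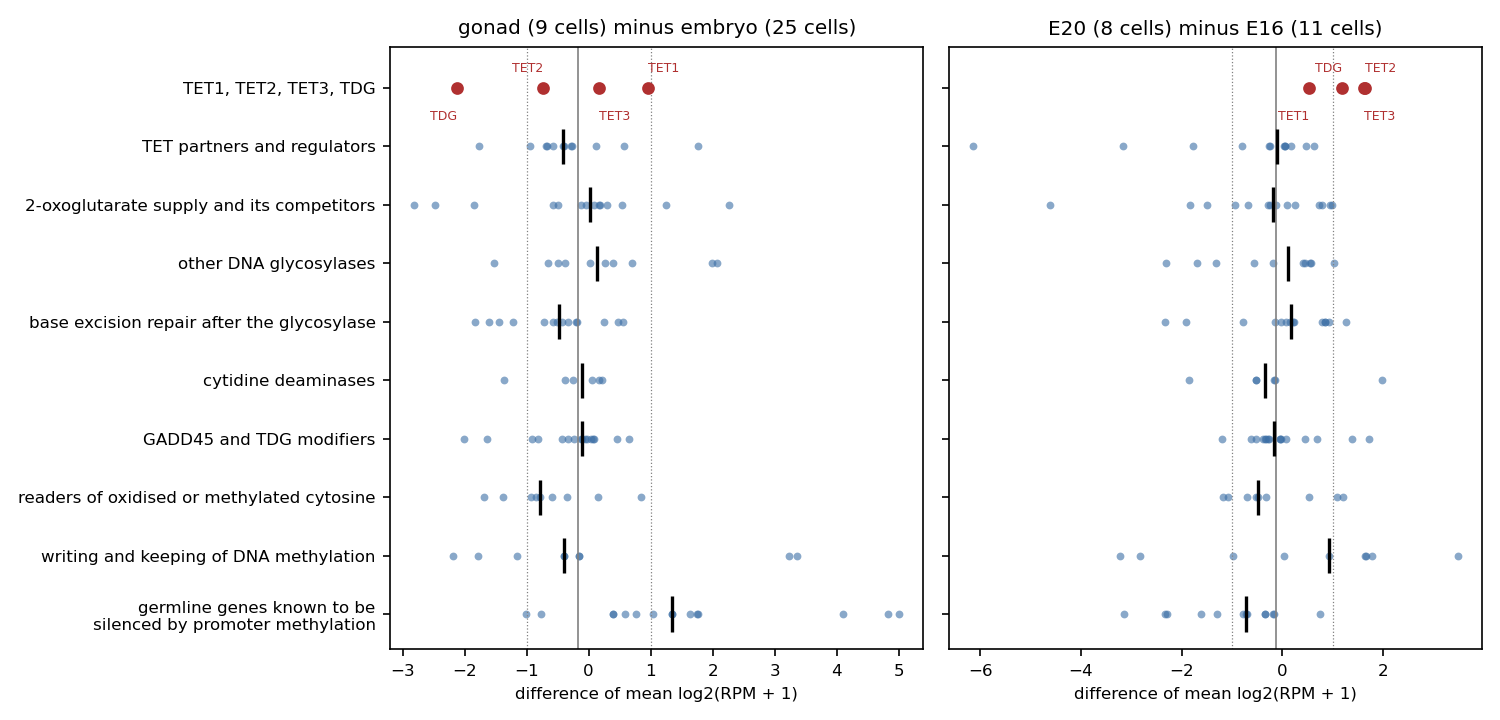
Difference of mean log2(RPM + 1) for the 4 genes (red) and each measured gene of the 9 pathway lists (blue), gonad minus embryo on the left and E20 minus E16 on the right. Black ticks are list medians, the grey line is the median of all genes measured (−0.17 and −0.12) and dotted lines mark −1 and 1; TDG lies at −2.12 on the left and 1.19 on the right.

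For E20 against E16 the list counts are read against 13.9% of all genes higher and 18.9% lower, with a median of −0.12. Of 9 genes that write or keep methylation 4 were higher and 2 lower (median 0.92), with UHRF1 at 131 ± 97.8 against 16.1 ± 24.5 RPM (3.49), DNMT3A 1.78, DNMT1 1.66 and DNMT3B 1.64 higher, and DPPA3 (−3.22) and DNMT3L (−2.83) lower. Of the other glycosylases 1 of 10 was higher and 3 lower, NEIL2 (−2.32), SMUG1 (−1.69) and UNG (−1.31), while OGG1 was higher by 1.02. UNG stood at −0.40 without E20 cell 2. OGG1 stood at 0.59 without that cell, and was also under the line without E20 cell 6 or any of E16 cells 2 to 7 and 9. Of base excision repair genes 1 of 14 was higher and 2 lower (median 0.18), LIG1 (−2.32) and POLB (−1.91), the repair polymerase. Among TET partners 0 of 12 were higher and 3 lower, led by NANOG (−6.14) and PRDM14 (−3.15). The E16 and E20 cells also make up most of the embryo group, so this comparison shares cells with that of gonad and embryo.

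At E36 against E16 the same lists gave 0 of 14 base excision repair genes higher and 6 lower (median −0.61), 0 of 9 readers higher and 4 lower (median −0.96), 0 of 15 GADD45 genes and TDG modifiers higher and 6 lower (median −0.77), and 1 of 10 other glycosylases higher and 4 lower (median −0.22). With 7.28% of all genes higher, 30.2% lower and their median at −0.48, these counts are read against a wide background of lower genes. Germline genes kept silent by methylation had 5 of 14 higher and 2 lower (median 0.54), against the same 7.28% and 30.2%. BRDT, counted as higher at 1.05, stood at 0.14 without E36 cell 2.

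The genes whose levels ran most like each of the 4 over the 34 cells were listed by Pearson's r of log2(RPM + 1), out of 6608 or 6609 genes with a human symbol and a mean of at least 20 RPM. For TET1 they were RYK (0.66), CANX (0.62), NOB1 (0.62), VAMP3 (0.61) and SENP6 (0.61), and the least alike were TIPRL (−0.53), POU6F1 (−0.51) and SPTAN1 (−0.50). RYK had a Spearman's rho of 0.28 and CANX of 0.39. For TET2 they were FOSL2 (0.68), SEC31A (0.67), MME (0.63), FBN2 (0.63) and ZNF503 (0.61), and the least alike NDUFA12 (−0.64), C12orf53 (−0.59) and TAF15 (−0.58). For TET3 they were KLF3 (0.61), GLUL (0.56), BCAT1 (0.55), CASC4 (0.53) and AIMP2 (0.51), and the least alike FAM40A (−0.80), PICALM (−0.69) and EIF2B5 (−0.69). FAM40A had a rho of −0.54 and PICALM of −0.39. For TDG they included PGK1 (0.65), RANGAP1 (0.65), PPP1R15B (0.64) and TRAPPC8 (0.64), and the least alike CRHBP (−0.71), POLR3A (−0.68) and RPL5 (−0.63). None of the genes named here is on the pathway lists, and no gene was among the 5 most like of more than 1 of the 4. They are the extremes of 6608 or 6609 correlations over 34 cells. Whether they exceed what unrelated genes would give was not tested.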

How the data were processed

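SC3-seq of 34 single cells was deposited as 1 table of 28551 genes. The values were deposited by the authors on a log2 scale with no unit in the header; raised as powers of 2 less 1 they sum to between 992085 and 995711 per cell, so they were read as log2(RPM + 1). The submitters' processing notes name cutadapt 1.3, TopHat 1.4.1 and Cufflinks 2.2.0, with no roles; genome build, annotation and counter: not given in the sources used here. Within a cell, low RPM values are whole multiples of 1 step, which gave whole reads within 0.1 read for 99.7% to 100% of them.

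Groups followed the labels' stage and tissue. A difference is that of mean log2(RPM + 1) over cells; genes averaging 1 RPM or more in either group were measured, and at least 2-fold (1 on the log2 scale) was counted. Differences between 2 stages with 1 sample each carry no p-value. Intervals are exact (95%). The level that a count of 0 allows is that of 3 reads over the summed reads, which is below the upper end of the exact interval. For TET2 at E13 that end is 1.94 RPM. Cells were clustered by Ward linkage on 2000 genes into 2 clusters. Named genes are the 4 enzymes, from each list up to 4 with the highest mean or largest difference, and the 5 most and 3 least correlated with each enzyme. The recovery of reads and the differences were tried on simulated Poisson counts without further spread between cells (Python 3.11.15, numpy 2.4.6, pandas 2.3.3, scipy 1.17.1). Only genes of higher mean level than TET2, TET3 and TDG were examined there. The simulation therefore does not cover calls on genes as sparse and as variable as these. The genes and lists were chosen with earlier results of these data known. Alternatives were the ratio of means, medians, a pseudocount of 10, TMM scaling of the reads, other filters, a single cluster or title code, and leaving out cells. The bound for somatic-rich gonad cells (at least 6 of 14 markers), the lists without those cells or within 1 cluster, and the MS09 contrast of the clusters were chosen after seeing the data. Not in the table were GLUD1, SDHA, SLC23A1, APOBEC3G, HMCES under that symbol and TEX101. Results for some genes that the naming rule covers are not reported here.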

Additional observations from a re-analysis of the deposited data

Results flagged for a closer look

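TET1 in E20 cell 8 (4.8 RPM) lay below the 7 other E20 cells (41.4 to 193 RPM). The gap to the next cell was 0.567 of the whole range of the 8 cells on the log2 scale, above the 95% critical value of Dixon's test for a group of 8. The cell is the 1 germ-cell-like cell of E20 and carries the code MS09, while the others are mesoderm-like and carry MS08. Chance alone flags some groups at this level, and 8 combinations of gene and group were screened, each at its lowest and its highest cell. Without this cell the E20 minus E16 difference of TET1 was 1.03 in place of 0.54.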

How the results depend on the processing

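Of 480 alternative values of the differences, 457 stayed within the spread between cells. Of these, 6 had the sign changed, all for differences under 2-fold. Most of the 480 left out a single cell (34, 17, 19 or 21 cells by comparison, for each gene). Leaving out 1 cell seldom moves a mean by that spread, so the count of 457 says little about stability. Differences of at least 2-fold changed sign in 4 of the 480, all for E20 against E16: TET2 (−0.43 in the germ-cell-like cluster, −0.70 within MS09) and TDG (−2.93 and −3.09). There TET1, under 2-fold with all cells (0.54), also changed sign, to −2.69 and −2.93. In the same cells TET3 was 0.30 and 0.0777; over all cells TET3 was 2.58 as the ratio of means and 0.55 with a pseudocount of 10, and TET2 3.96 as a median. For E36 against E16 the median gave TET1 0.50, the ratio of means TET3 2.76. For mesoderm-like against germ-cell-like cells the median gave TET1 0.42 and TET2 4.30; TET3 was 3.14 as the ratio of means, 0.66 with a pseudocount of 10 and 1.85 with average linkage; within MS09 TET1 was 2.87 and TET3 2.38. Leaving out each cell in turn moved TET3 from 0.44 to 1.57 (E36 against E16) and from 1.66 to 2.44 (clusters). Averaging shares over cells gave TET1 66.0% at E17 and 91.9% at E36, or 90.6% of mean RPM at E36; leaving out cells gave 97.3 to 100% at E13, 90.6 to 94.2% at E16, 32.1 to 100% at E17, 76.1 to 81.0% at E20 and 86.1 to 93.7% at E36. With 1 read in place of 15 RPM, TET2 was found in 16 cells, TET3 in 17 and TDG in 29; at 5 RPM TET3 in 6 and TDG in 22. The cause was not tested. Scaling by TMM moved the median of all genes by less than 0.1. The E13 libraries were the shallowest: a count of 0 over their summed reads allows up to 1.58 RPM. Of 459 alternatives for the gene lists, 64 counts or medians moved and no median of at least 2-fold changed sign. No paired analysis was possible because the cells carry no shared replicate numbers or animals.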
